A study of Mus musculus with 18 samples.

Results

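The TGF-β pathway was examined in mouse eosinophils through 8 genes: the ligands Tgfb1 and Tgfb2, the receptor genes Tgfbr1 and Tgfbr2, the signal transducer Smad3, the inhibitors Smad7 and Ski, and Tgfbi, which encodes an extracellular matrix protein named for its induction by TGF-β. They were picked by gene symbol, through the Ensembl identifier with its version dropped, and they are 8 of the 54446 genes in the deposited table. All 8 had a mean normalized count of at least 10, the level needed to enter the tests.

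TGF-β is made as a latent dimer and must be released before it can bind. It then joins a type II receptor (Tgfbr2) to a type I receptor (Tgfbr1), and the type I receptor phosphorylates Smad2 and Smad3, which enter the nucleus with Smad4. Smad7 blocks the type I receptor and Ski holds Smad complexes in a repressed state, and phagocytes that take up dying cells are well known as a source of TGF-β.

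The cells were peritoneal eosinophils of mice labelled C57BL/6 that overexpress Il5 from a transgene (Il5Tg). Every one of the 18 libraries came from eosinophils cultured with apoptotic cells (ACs), which were wild-type thymocytes killed with dexamethasone, for 18 h at 5 ACs per eosinophil. The study describes recovering the eosinophils of all conditions afterwards with anti-Siglec-F beads, to keep ACs out of the sequencing. It reports a check of their purity and viability by flow cytometry. The Type 1 experiment added E. coli, IFN-γ or both to the ACs, beside a group left on ACs without a stimulus, and the IL-4 experiment set IL-4 + ACs beside ACs of its own, each group with 3 libraries. For both stimuli the study describes IFN-γ first and E. coli after it, and the interval is not given in the sources used here. The 3 stimuli of the Type 1 experiment are each compared with the same 3 ACs libraries, so their values stand side by side and are not independent. The study describes its replicates as biological and says, for a plot of ACs libraries, that the eosinophils came from different mice. For the stimulated groups this is not spelled out, and p-values measure the spread between these libraries. The age of the eosinophil donors and the dose of the stimuli are not given in the sources used here. No group without apoptotic cells is analysed here, and eosinophils driven by surplus IL-5 may differ from those of normal mice.

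Libraries held 779421 to 7782072 reads on genes, and replicate 3 of ACs (779421) and of IL-4 + ACs (849705) in the IL-4 experiment were the shallowest. The eosinophil markers Siglecf and Ccr3 were high, with group means of 1630 to 3237 and 2974 to 4498 normalized counts, whereas Epx, the eosinophil peroxidase gene, was near 0, at 0.46 to 14.1. Of 8 eosinophil markers tested, 4 fell and none rose with IFN-γ, where 9.96% of all genes tested fell and 11.4% rose. The sum of the eosinophil markers was 5823 to 6720 against 9061 to 9403 with ACs, and the mean of Siglecf was 1630 against 3237. With E. coli 1 fell and 1 rose (5.25% and 5.05% of all genes), and the sum was 10576 to 11827. With both stimuli 2 fell and 1 rose (17.2% and 14.7%), and the sum was 8892 to 10179. Beside the same shares of all genes, 2 of 4 neutrophil markers tested rose and 1 fell with E. coli. With IFN-γ 3 rose and 1 fell, and with both stimuli 3 rose. The sum of 8 was 533 to 606 with ACs, 517 to 678 with E. coli, 367 to 394 with IFN-γ and 700 to 841 with both. With ACs most of that sum was Mmp8, at a mean of 522, whereas S100a8 went from a mean of 47.3 with ACs to 330 with E. coli. Markers of thymocytes, the source of the ACs, summed to 53.6 to 193 per library over 12 genes, and none of the 4 tested with the Type 1 libraries or the 2 tested with those of IL-4 was past the threshold in a comparison with ACs. The 12 peritoneal macrophage markers were all present. Their summed level was 21407 to 27829 in the ACs libraries of the Type 1 experiment, 21515 to 26986 with E. coli, 35210 to 40411 with IFN-γ and 20086 to 23538 with both. These sums rest largely on a few abundant genes, which moved in different directions. With E. coli the mean of Cd14 rose from 5859 to 11059 while that of Lyz2 fell from 5010 to 3367. In bulk RNA, fewer cells of one type and less RNA per cell cannot be told apart.

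The promoters of Tgfbr1, Tgfbr2 and Tgfbi are shown first because both receptor transcripts rose, and Tgfbi fell most, in the combined Type 1 group. The bases are from RefSeq on GRCm38.p6, lie upstream of both the RefSeq and the GENCODE start of the gene, and are read 5′ to 3′ on the strand of the gene. Capitals mark the motifs searched for that were found, CAGAC (the core of the Smad-binding element, GTCTG on the opposite strand) and the core of the interferon-stimulated response element (ISRE, GAAA and GAAA 2 bases apart).
Tgfbr1, chr4:47352972-47353221, plus strand: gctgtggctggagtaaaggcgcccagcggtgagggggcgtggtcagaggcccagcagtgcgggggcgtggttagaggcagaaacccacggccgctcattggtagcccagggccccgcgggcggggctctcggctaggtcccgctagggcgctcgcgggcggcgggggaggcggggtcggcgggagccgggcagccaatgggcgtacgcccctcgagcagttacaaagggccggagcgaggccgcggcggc
Tgfbr2, chr9:116175364-116175613, minus strand: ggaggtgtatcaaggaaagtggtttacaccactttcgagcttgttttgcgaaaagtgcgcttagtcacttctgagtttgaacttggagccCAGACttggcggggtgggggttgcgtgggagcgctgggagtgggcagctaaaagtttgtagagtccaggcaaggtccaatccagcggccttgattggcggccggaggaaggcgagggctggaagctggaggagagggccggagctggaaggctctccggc
Tgfbi, chr13:56609336-56609522, plus strand: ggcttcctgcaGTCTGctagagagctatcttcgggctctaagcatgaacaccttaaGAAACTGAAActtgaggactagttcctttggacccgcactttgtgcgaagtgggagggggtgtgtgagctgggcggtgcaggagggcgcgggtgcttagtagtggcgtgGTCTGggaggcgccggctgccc

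Both strands were searched in windows from 250 bases before to 50 bases after the RefSeq start, for CAGAC, GTCTAGAC (the Smad palindrome), the ISRE, TTCNNNGAA (the interferon-γ-activated site), the STAT6-type site (TTC and GAA 4 bases apart), an NF-κB-type site (GGG and TTCC 3 bases apart) and TGANTCA (the AP-1 site). Tgfbi had 2 CAGAC matches on the minus strand, at -239 to -235 and -85 to -81 from its RefSeq start (position 56609586, downstream of the last base printed), and 1 ISRE match at -194 to -185. Tgfbr2 had 1 CAGAC match, at -160 to -156, and Tgfb2 had 2, at -221 to -217 and -204 to -200. None of the 7 motifs was found in the windows of Tgfb1, Tgfbr1, Smad3 and Ski. CAGAC is short and occurred in 49.6% of 32851 promoter windows of the same length, whereas the ISRE occurred in 3.44%, TTCNNNGAA in 8.3%, the STAT6-type site in 6.95%, TGANTCA in 7.81%, the NF-κB-type site in 5.56% and GTCTAGAC in 0.213%. The Tgfbr1 stretch printed above is the richest of the 3 in G and C, at 74.8%, against 58.4% for Tgfbr2 and 59.4% for Tgfbi. A window was found for 7 of the 8 genes, all but Smad7.

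With IFN-γ + E. coli + ACs, 6 of the 8 transcripts were past the threshold, set at 1.5-fold or more with an adjusted p under 0.05 in limma. The receptor transcripts Tgfbr1 and Tgfbr2 and the inhibitor transcripts Smad7 and Ski rose, and Tgfb2 and Tgfbi fell. Of all 10166 genes tested in this comparison, 31.9% were past the threshold (14.7% higher and 17.2% lower), and 7 of the 8 had groups that did not overlap, against 48.8% of all genes. With E. coli + ACs, Tgfbr1 and Smad7 rose and Smad3 and Tgfbi fell, 4 of 8 beside a background of 10.3% (5.05% higher and 5.25% lower), and 6 of 8 did not overlap beside 38.3%. With IFN-γ + ACs, Tgfbr1 and Smad7 rose and Tgfbi fell, 3 of 8 beside a background of 21.4% (11.4% higher and 9.96% lower), and 6 of 8 did not overlap beside 42.9%. With IL-4 + ACs none of the 8 was past the threshold in limma, edgeR or DESeq2, where 1.09% of all genes tested were in limma (0.74% higher and 0.347% lower), and 1 of 8 did not overlap, beside 17.3%. At an unadjusted p under 0.05 there was 1 of the 8 in limma and in DESeq2 (Smad3) and 2 in edgeR (Smad3 and Tgfb2).

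**Figure D1:**
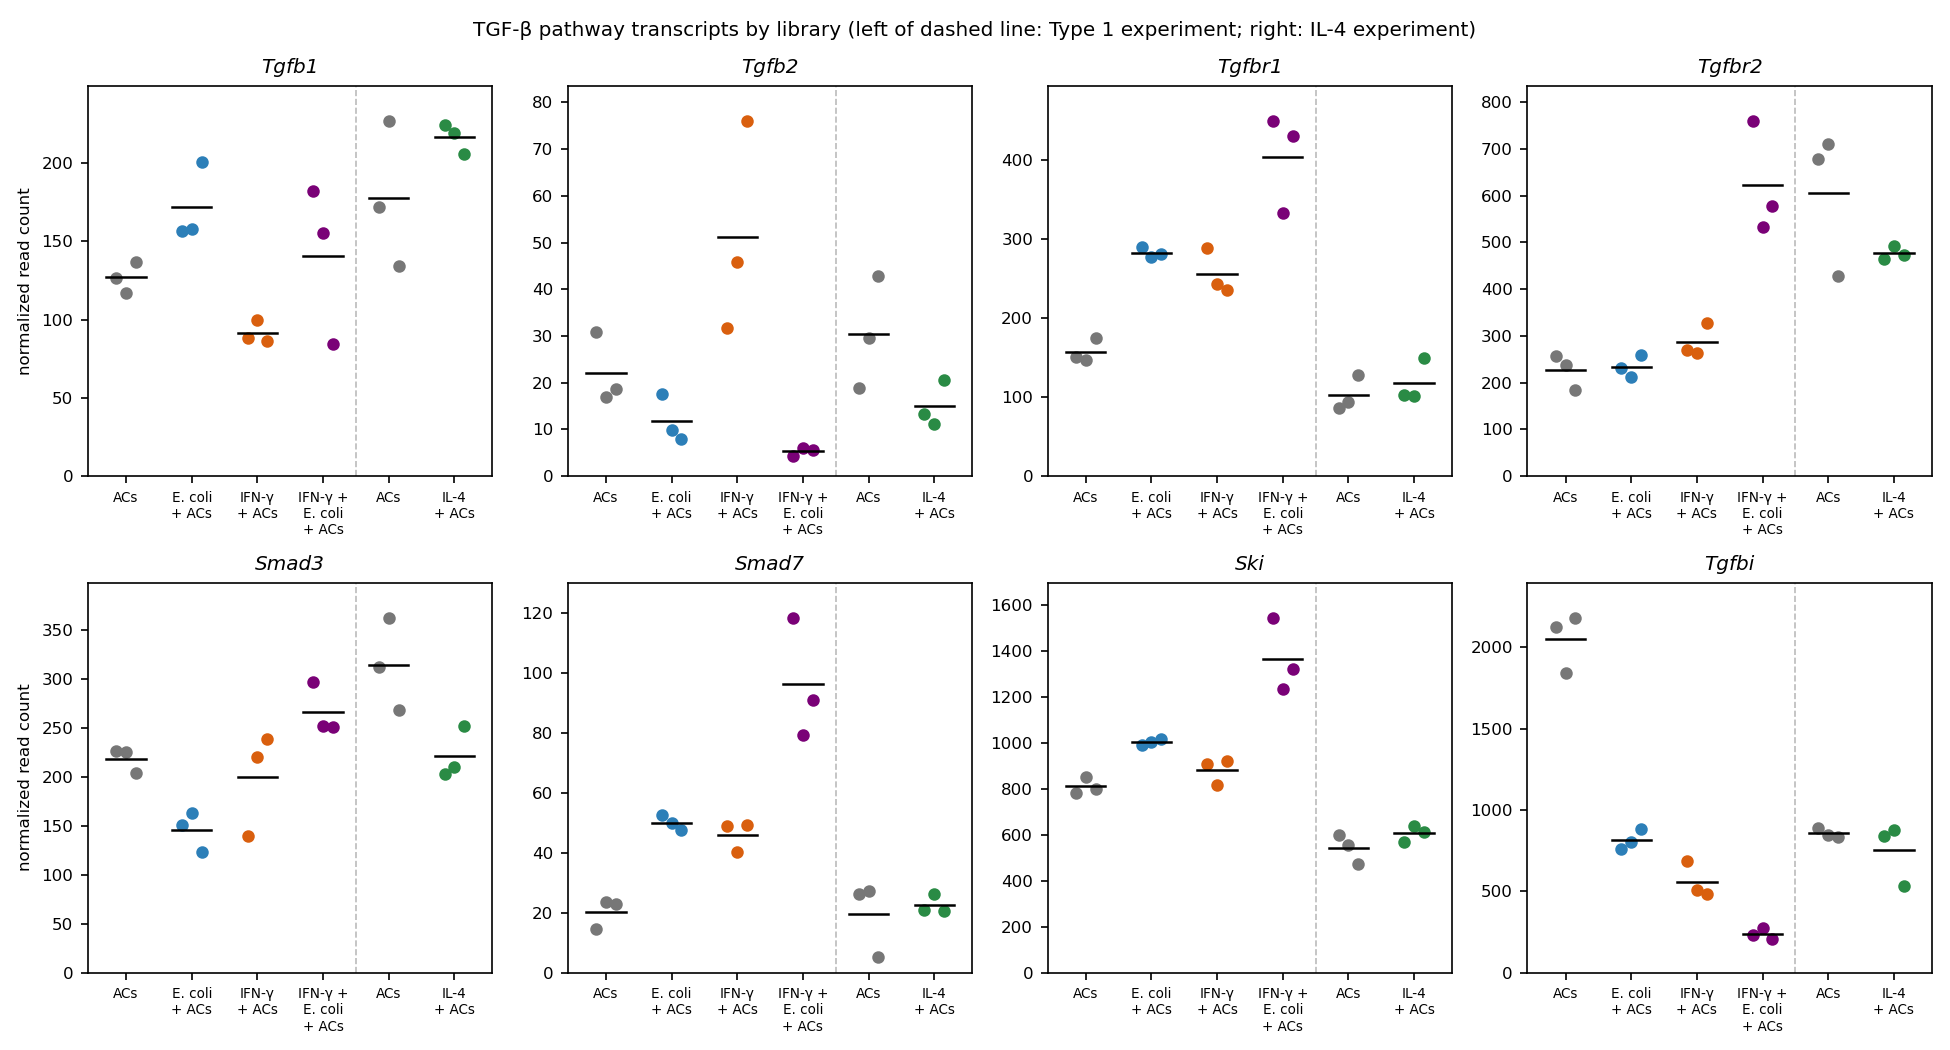
Normalized read count (linear axis from 0) of each of the 8 transcripts in the 18 libraries, with 1 point per library, a line at the mean of each group of 3, and a dashed line that parts the Type 1 libraries from those of the IL-4 experiment. Tgfbi stepped down from a mean of 2050 with ACs to 237 with IFN-γ + E. coli + ACs, while Tgfbr1, Tgfbr2, Smad7 and Ski had their highest Type 1 values in the 3 libraries with both stimuli.

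The ligand transcripts came first in the pathway and behaved unlike each other. Tgfb1 (ENSMUSG00000002603.15, chromosome 7, 25687002 to 25705077, plus strand, GRCm38), the most widely expressed TGF-β ligand of leukocytes, had normalized counts of 127, 117 and 137 with ACs, 157, 158 and 201 after E. coli, 88.4, 99.7 and 86.2 after IFN-γ, and 182, 155 and 84.2 with both stimuli. All 3 E. coli libraries lay above and all 3 IFN-γ libraries below the ACs libraries, and the libraries with both spread across the whole range. None of these differences from ACs passed the test, with log2 fold changes of 0.42 ± 0.23 (SE, adjusted p = 0.26) for E. coli, -0.47 ± 0.23 (SE, adjusted p = 0.14) for IFN-γ and 0.07 ± 0.23 (SE, adjusted p = 0.82) for both. The single stimuli did differ from each other, and Tgfb1 was 1.86-fold lower with IFN-γ + ACs than with E. coli + ACs (log2 fold change -0.89 ± 0.23 SE, adjusted p = 0.0076). That difference was no longer past the threshold without E. coli + ACs replicate 3, at -0.78 (adjusted p = 0.051).

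Tgfb2 (ENSMUSG00000039239.14, chromosome 1, 186622792 to 186705989, minus strand), a second ligand of the same receptors, was scarce and its values rest on few reads. Its normalized counts were 30.9, 16.9 and 18.8 with ACs, 17.6, 9.81 and 7.92 after E. coli, 31.7, 45.9 and 75.9 after IFN-γ, and 4.28, 6.11 and 5.52 with both. The IFN-γ libraries were all above the ACs libraries and the libraries with both stimuli were all below every other Type 1 library, where they held 3, 5 and 4 reads. Against ACs, the fall with both stimuli was 3.58-fold (log2 fold change -1.84 ± 0.43 SE, adjusted p = 0.0024). The value with IFN-γ alone, 1.13 ± 0.43 (SE, adjusted p = 0.061), missed the threshold in limma and passed it in edgeR (1.14, adjusted p = 0.036) and DESeq2 (1.16, adjusted p = 0.033). Adding E. coli to IFN-γ was accompanied by a 7.83-fold lower Tgfb2 (-2.97 ± 0.43 SE, adjusted p = 8.3e-05). These folds are on the log2(value + 1) scale, which understates changes at such low levels.

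Some markers of macrophages, and in part those of mesothelial cells and fibroblasts, moved with Tgfb2. The group means of 4 of 12 macrophage markers stood in the same order as those of Tgfb2, from IFN-γ through ACs and E. coli to both stimuli. They were C1qa (771, 585, 230 and 106), Gata6 (176, 143, 90.0 and 36.2), Fcgr1 (641, 610, 452 and 191) and Prg4 (6753, 5589, 4641 and 3013). The rest of the 12 stood in other orders. Among them, Adgre1 was highest with both stimuli (2987, against 1806 with ACs) and Cd14 with E. coli (11059, against 5859 with ACs). How many of all genes share the order of Tgfb2 was not counted. The 7 mesothelial and fibroblast markers summed to 62.9 to 88.6 in the ACs libraries, 48.2 to 74.5 with E. coli, 28.7 to 51.6 with IFN-γ and 5.52 to 12.2 with both, and most of it was Dcn, the decorin gene, with group means of 68.1, 50.9, 36.4 and 6.8. Lum was at 0 in all 12 Type 1 libraries and Msln in 3 of the 4 groups. With IFN-γ alone their sum was below and Tgfb2 above the ACs libraries, and the part of any of these cells in the Tgfb2 values was not tested.

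Both receptor transcripts rose, but with different stimuli. Tgfbr1 (ENSMUSG00000007613.15, chromosome 4, 47353222 to 47414931, plus strand), the type I receptor kinase, had normalized counts of 151, 147 and 175 with ACs, 290, 277 and 281 after E. coli, 289, 243 and 236 after IFN-γ, and 449, 333 and 430 with both. Each stimulated library was above each ACs library, and the 3 libraries with both stimuli were above all others, while E. coli and IFN-γ overlapped. The rise was 1.79-fold with E. coli (log2 fold change 0.84 ± 0.15 SE, adjusted p = 0.00062), 1.62-fold with IFN-γ (0.69 ± 0.15 SE, adjusted p = 0.0016) and 2.54-fold with both (1.34 ± 0.15 SE, adjusted p = 8e-07). The 95% confidence interval of the difference between IFN-γ and E. coli, -0.46 to 0.16 in log2, includes 0.

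Tgfbr2 (ENSMUSG00000032440.13, chromosome 9, 116084293 to 116175360, minus strand), the type II receptor that binds the ligand first, had normalized counts of 256, 237 and 185 with ACs, 232, 213 and 259 after E. coli, 269, 264 and 328 after IFN-γ, and 758, 533 and 578 with both. The libraries with both stimuli stood far above the other 9, which lay together between 185 and 328. Tgfbr2 rose 2.74-fold with both stimuli (log2 fold change 1.45 ± 0.16 SE, adjusted p = 1e-06), against 0.06 ± 0.16 (SE, adjusted p = 0.88) with E. coli and 0.35 ± 0.16 (SE, adjusted p = 0.13) with IFN-γ. It was also higher with both than with IFN-γ alone (2.15-fold, adjusted p = 9.8e-05) and than with E. coli alone (2.63-fold, adjusted p = 4.7e-06).

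Among the Smads, the transducer and the inhibitor differed. Smad3 (ENSMUSG00000032402.12, chromosome 9, 63646767 to 63757994, minus strand), which carries the signal to the nucleus, had normalized counts of 226, 225 and 204 with ACs, 151, 163 and 123 after E. coli, 140, 220 and 238 after IFN-γ, and 297, 252 and 251 with both. The E. coli libraries were all below and the libraries with both all above the ACs libraries, and IFN-γ replicate 1 stood apart from the other two IFN-γ libraries. Smad3 fell 1.51-fold with E. coli (log2 fold change -0.59 ± 0.19 SE, adjusted p = 0.041), just past the threshold, and this call was lost when any 1 of the 6 libraries was left out, at -0.48 to -0.68 (adjusted p 0.052 to 0.18). It was 1.83-fold higher with both stimuli than with E. coli alone (0.87 ± 0.19 SE, adjusted p = 0.002), and against ACs the value with both was 0.28 ± 0.19 (SE, adjusted p = 0.24).

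Smad7 (ENSMUSG00000025880.11, chromosome 18, 75367529 to 75395935, plus strand), the inhibitory Smad and a usual target of the pathway, had normalized counts of 14.6, 23.5 and 22.8 with ACs, 52.7, 49.9 and 47.5 after E. coli, 48.8, 40.1 and 49.3 after IFN-γ, and 118, 79.4 and 91.1 with both. The groups formed 3 levels that did not overlap: ACs at the bottom, either stimulus alone in the middle, and both at the top. Smad7 rose 2.44-fold with E. coli (log2 fold change 1.29 ± 0.26 SE, adjusted p = 0.0018), 2.24-fold with IFN-γ (1.17 ± 0.26 SE, adjusted p = 0.002) and 4.59-fold with both (2.20 ± 0.26 SE, adjusted p = 1.5e-06). Both stimuli exceeded IFN-γ alone by 2.05-fold (adjusted p = 0.0073) and E. coli alone by 1.88-fold (adjusted p = 0.014), and without replicate 1 of both stimuli the latter was 0.75 in log2 (adjusted p = 0.068). With all 18 libraries in one fit neither was past the threshold (adjusted p = 0.097 and 0.13).

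Ski (ENSMUSG00000029050.15, chromosome 4, 155154075 to 155222592, minus strand), the nuclear co-repressor of Smad complexes, had normalized counts of 785, 853 and 800.1 with ACs, 991, 1005 and 1018 after E. coli, 908, 820 and 921 after IFN-γ, and 1545, 1236 and 1322 with both. The E. coli libraries were above the ACs libraries by a small margin, the IFN-γ libraries overlapped them, and the libraries with both were the highest. Only the rise with both, 1.68-fold, was past the threshold among the 3 comparisons with ACs (log2 fold change 0.74 ± 0.11 SE, adjusted p = 2.7e-05). With E. coli the value was 0.31 ± 0.11 (SE, adjusted p = 0.076) and with IFN-γ 0.12 ± 0.11 (SE, adjusted p = 0.47).

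Tgfbi (ENSMUSG00000035493.10, chromosome 13, 56609523 to 56639562, plus strand), whose protein binds collagens and integrins, had the largest change of the 8 in each Type 1 comparison with ACs. Its normalized counts were 2127, 1844 and 2180 with ACs, 761, 805 and 882 after E. coli, 685, 505 and 482 after IFN-γ, and 232, 275 and 204 with both. The 4 groups did not overlap and ran in one order, from ACs through E. coli and IFN-γ to both. Against ACs, Tgfbi fell 2.51-fold with E. coli (log2 fold change -1.33 ± 0.15 SE, adjusted p = 3.2e-06), 3.71-fold with IFN-γ (-1.89 ± 0.15 SE, adjusted p = 9.4e-09) and 8.65-fold with both (-3.11 ± 0.15 SE, adjusted p = 5.3e-12). Both stimuli together were 2.33-fold below IFN-γ alone (adjusted p = 9.2e-06) and 3.45-fold below E. coli alone (adjusted p = 3.6e-08). IFN-γ was 1.48-fold below E. coli, under the fold threshold, with an adjusted p of 0.0083.

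Macrophages express Tgfbi, and their markers were present in these libraries. Of the 12 macrophage markers, 1 rose and 3 fell with E. coli, 5 rose and none fell with IFN-γ, and 3 rose and 5 fell with both. Of all genes tested, 5.05% rose and 5.25% fell with E. coli, 11.4% and 9.96% with IFN-γ, and 14.7% and 17.2% with both. C1qa, a complement gene of resident macrophages, had group means of 585 with ACs, 230 with E. coli, 771 with IFN-γ and 106 with both. With IFN-γ the summed macrophage markers were above those of every ACs library while Tgfbi was below. Much of that higher sum was Lyz2 (mean 5010 with ACs and 9610 with IFN-γ), Marco (707 and 3155) and C1qb (2580 and 4957). Csf1r, at 1170 and 1053, and Fcgr1, at 610 and 641, changed little. The sum is therefore not a measure of the amount of macrophages. The part of macrophages in the fall of Tgfbi was not tested with any of the stimuli.

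**Figure D2:**
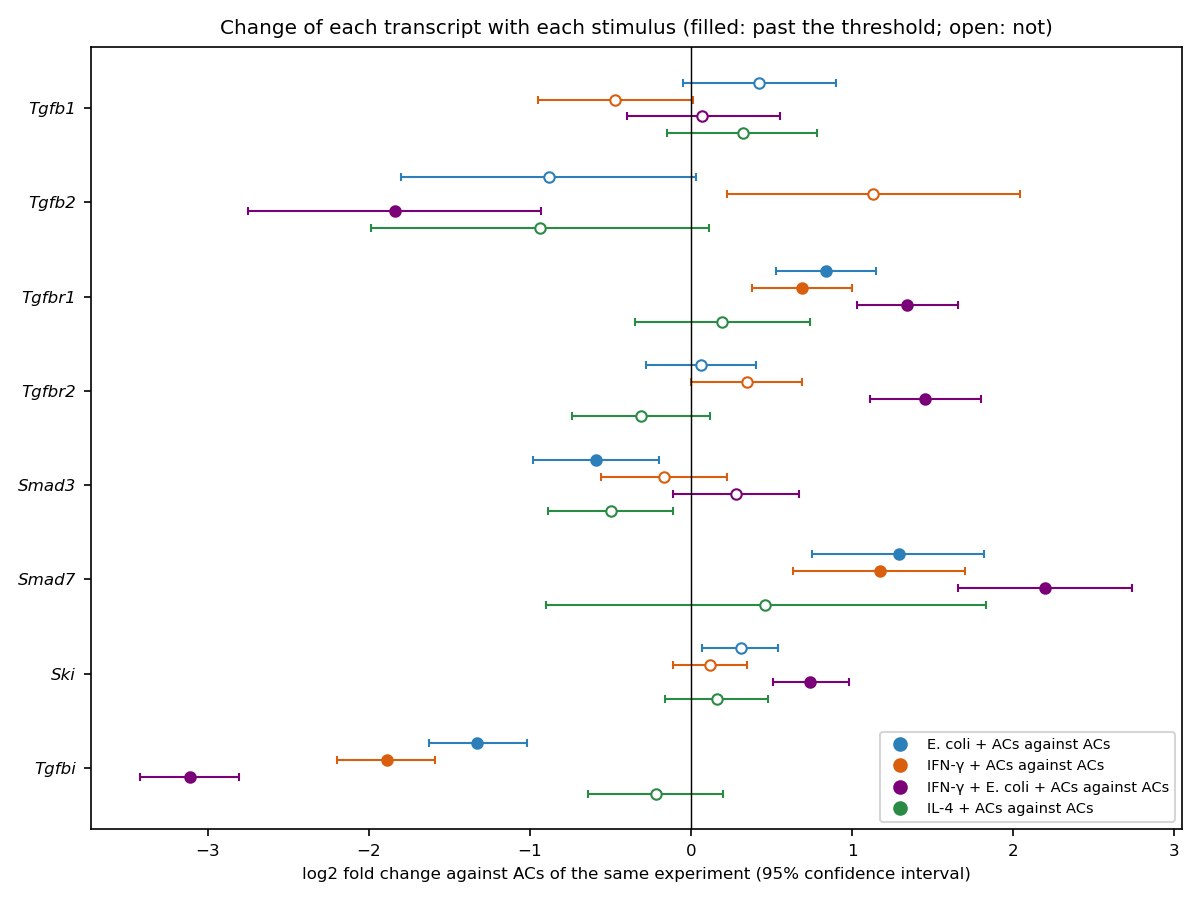
Log2 fold change of each of the 8 transcripts (horizontal axis) in the 4 comparisons with the ACs libraries of the same experiment, with bars for the 95% confidence interval from limma and filled points for changes past the threshold. The purple points for IFN-γ + E. coli lie farthest from 0 for 6 of the 8 transcripts, from -3.11 for Tgfbi to 2.20 for Smad7, and the green points for IL-4 are all open.

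The direct comparisons of the Type 1 stimuli set both stimuli beside each single stimulus, and the single stimuli beside each other. Adding E. coli to IFN-γ was accompanied by higher Tgfbr1, Tgfbr2, Smad7 and Ski and lower Tgfb2 and Tgfbi, 6 of 8 beside a background of 14.6% (5.96% higher and 8.61% lower), and 7 of 8 did not overlap beside 29.6%. Tgfbr1 was 1.57-fold higher (adjusted p = 0.0042) and Ski 1.54-fold higher (adjusted p = 0.00052). Both lost the call without replicate 1 of both stimuli, with log2 values of 0.57 for Tgfbr1 and 0.54 for Ski, which are under 1.5-fold, and Ski also without IFN-γ replicate 2 (0.57). Against E. coli alone, both stimuli were accompanied by higher Tgfbr2, Smad3 and Smad7 and lower Tgfbi, 4 of 8 beside a background of 19.4% (9.79% higher and 9.57% lower), and 7 of 8 did not overlap beside 39.3%. Between the single stimuli, Tgfb2 was 4.04-fold higher (adjusted p = 0.0022) and Tgfb1 lower with IFN-γ than with E. coli, 2 of 8 beside 16.6% (9.84% higher and 6.72% lower), and 5 of 8 did not overlap beside 36.8%.

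If the stimuli acted independently on the log scale, the change with both would equal the sum of the single changes, and the interaction term measures the departure from that sum. In the combined group E. coli is described as coming after IFN-γ, so the order of exposure cannot be told apart from the combination. It was past the threshold for 3 of the 8 transcripts, beside 7.44% of all genes tested (3.16% positive and 4.28% negative). For Tgfbr2 the sum was 0.41 and the measured change 1.45, an interaction of 1.05 ± 0.23 (SE, adjusted p = 0.0091). For Smad3 the sum was -0.76 and the measured change 0.28, an interaction of 1.04 ± 0.26 (SE, adjusted p = 0.019), which was no longer past the threshold without ACs replicate 2 (1.02, adjusted p = 0.051) or E. coli + ACs replicate 3 (0.93, adjusted p = 0.062). For Tgfb2 the sum was 0.24 and the measured change -1.84, an interaction of -2.09 ± 0.61 (SE, adjusted p = 0.044), and this call was lost with 7 of the 12 libraries left out in turn, at -1.76 to -2.17 (adjusted p 0.062 to 0.13), with no filter on low values (adjusted p = 0.11) and with all 18 libraries in one fit (adjusted p = 0.058).

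For the other 5 transcripts the interaction was not past the threshold. Tgfbi had a sum of -3.22 and a measured change of -3.11, with an interaction of 0.10 (95% confidence interval -0.33 to 0.54). Tgfbr1 had 1.54 and 1.34 (interaction interval -0.63 to 0.25), Smad7 had 2.45 and 2.20 (-1.01 to 0.50), Ski had 0.42 and 0.74 (-0.01 to 0.65), and Tgfb1 had -0.05 and 0.07 (-0.55 to 0.80). Each interval includes 0, which does not show that the sum holds, and those of Smad7 and Tgfb1 are the widest of the 5.

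**Figure D3:**
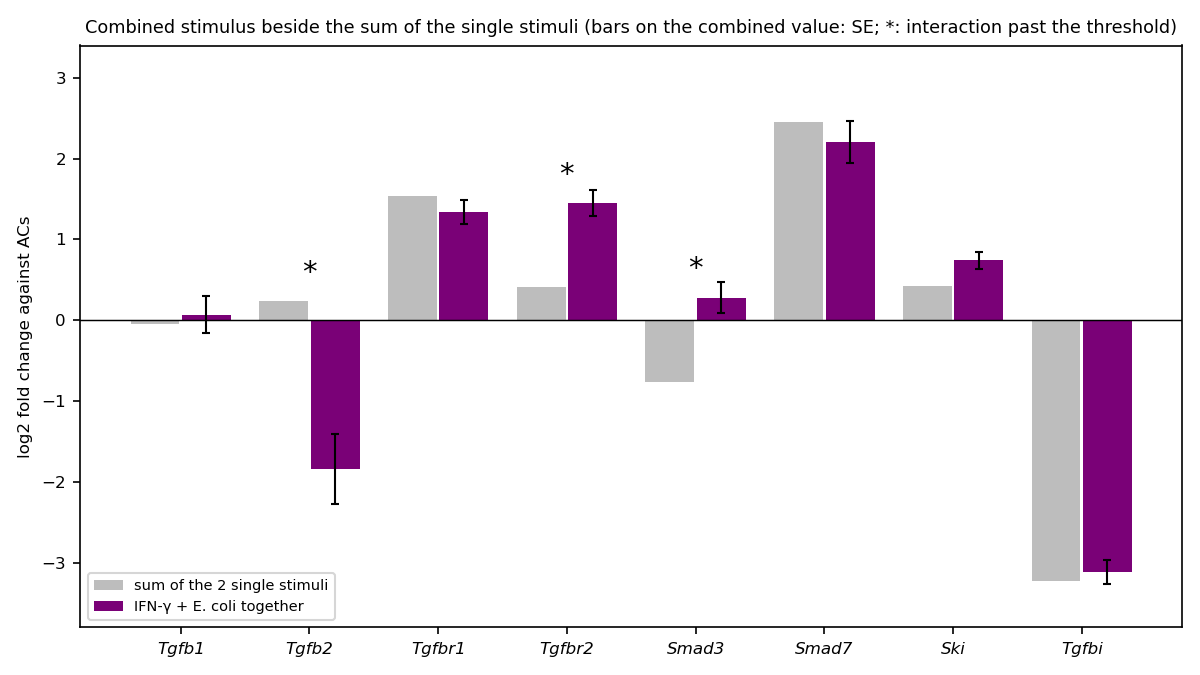
Bars of the log2 fold change against ACs for each transcript, as the sum of the E. coli and IFN-γ changes (grey) and as measured with both stimuli (purple, with its SE), and an asterisk where the interaction was past the threshold. For Tgfbi the bars reach -3.22 and -3.11, whereas for Tgfbr2 they reach 0.41 and 1.45 and for Tgfb2 they point in opposite directions.

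The IL-4 experiment had its own ACs libraries, and none of the 8 transcripts was past the threshold there. Tgfbi had normalized counts of 891, 846 and 831 with ACs and 843, 878 and 535 with IL-4 + ACs, Tgfbr1 had 85.7, 93.4 and 129 against 103, 101 and 149, and Tgfbr2 had 679, 709 and 429 against 465, 493 and 473. In each of these the groups overlapped, and the lowest Tgfbi and Tgfbr2 values and the highest Tgfbr1 value of the experiment came from shallow replicate 3 libraries. The log2 fold changes were -0.22 (95% confidence interval -0.64 to 0.20) for Tgfbi, 0.19 (-0.35 to 0.74) for Tgfbr1 and -0.31 (-0.74 to 0.12) for Tgfbr2. Without both replicate 3 libraries Tgfbr2 was at -0.53 (adjusted p = 0.01), under 1.5-fold.

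Smad3 was the one transcript of the 8 whose IL-4 libraries, at 203, 210 and 252, were all below the ACs libraries, at 312, 362 and 268. Its log2 fold change was -0.50 ± 0.18 (SE, adjusted p = 0.39), and without both replicate 3 libraries it was -0.70 (adjusted p = 0.0067), past the threshold. Smad7 had normalized counts of 26.3, 27.3 and 5.36 with ACs and 20.9, 26.4 and 20.6 with IL-4 + ACs, where 5.36 is 1 read and 20.6 is 4 reads. Its log2 fold change of 0.46 had a 95% confidence interval of -0.90 to 1.83, so a change of Smad7 was not measurable at this depth. Tgfb1 (134 to 227 with ACs and 206 to 224 with IL-4 + ACs), Tgfb2 (18.8 to 42.9 and 11.1 to 20.6) and Ski (472 to 600.1 and 570 to 639) overlapped as well, at 0.32, -0.94 and 0.16 in log2 with adjusted p of 0.67, 0.56 and 0.74.

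The ACs libraries of the 2 experiments differed in level for some of the 8 transcripts. Means of the 3 Type 1 ACs libraries were 2050 ± 180 (SD) for Tgfbi and 226 ± 36.8 (SD) for Tgfbr2, and those of the 3 IL-4 ACs libraries were 856 ± 31.2 (SD) and 606 ± 154 (SD). The experiment and the ACs group cannot be told apart, so each response was taken within its own experiment before the 2 were compared. The IL-4 response minus the IFN-γ + E. coli response was past the threshold for 5 of the 8, beside a background of 20.4% (9.67% positive and 10.8% negative), positive for Tgfbi (2.89 ± 0.24 SE, adjusted p = 2.1e-08) and negative for Tgfbr2 (-1.76 ± 0.26 SE, adjusted p = 3.4e-05), Tgfbr1 (-1.15 ± 0.26 SE, adjusted p = 0.0028), Smad7 (-1.73 ± 0.58 SE, adjusted p = 0.038) and Smad3 (-0.78 ± 0.26 SE, adjusted p = 0.037). The calls for Smad7 and Smad3 were lost with several single libraries left out, with adjusted p up to 0.11 and 0.094. Tgfbi, Tgfbr1 and Tgfbr2 therefore differed between the IL-4 and the combined Type 1 response by test. For Ski the difference was -0.58 (adjusted p = 0.014), under 1.5-fold, and the 95% confidence intervals for Tgfb1 (-0.44 to 0.92) and Tgfb2 (-0.41 to 2.20) include 0.

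The wider pathway was read from lists of 88 genes by role, which include the 8. Of these, 59 were tested with the Type 1 libraries and 61 with those of IL-4. The 59 include genes, such as Inhba, Gdf15 and Acvrl1, that were scarce with ACs and entered only through the stimulated libraries, which favours a rise. With both stimuli 21 of 59 rose and 11 fell, beside 14.7% and 17.2% of all genes tested, with a median log2 fold change of 0.35 beside -0.05. With E. coli 14 rose and 5 fell, beside 5.05% and 5.25% (median 0.14 beside 0.00), and with IFN-γ 11 rose and 9 fell, beside 11.4% and 9.96% (median 0.19 beside 0.00). With IL-4, of 61 tested, 1 rose and 1 fell, beside 0.74% and 0.347% (median -0.01 beside -0.01).

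Genes that store and release the ligand come before the receptors. Of 6 such genes tested, 3 rose with both stimuli and none fell, where 14.7% of all genes rose and 17.2% fell: Thbs1, whose product thrombospondin can activate latent TGF-β, by 2.84 ± 0.16 in log2 (adjusted p = 5.7e-11), with Furin and Itgav. Itgb8, the integrin subunit that pairs with the product of Itgav, fell by 2.08 in log2 with IFN-γ (SE 0.30, adjusted p = 3.7e-05), rose with E. coli (1.01, adjusted p = 0.033) and was at -0.09 with both (adjusted p = 0.83). With IL-4, Ltbp1, which encodes a latent TGF-β binding protein, fell by 1.91 in log2 (SE 0.33, adjusted p = 0.027), from a mean of 147 to 38.9.

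Among receptors and co-receptors, 5 of 10 tested rose with both stimuli and 1 fell, beside the same 14.7% and 17.2%. The latter was Tgfbr3, the co-receptor that presents ligand, at -1.23 in log2 (adjusted p = 0.0061), and the former included Acvr2a (0.90, adjusted p = 0.039) and Bmpr1a (1.05, adjusted p = 0.0075), which serve activins and bone morphogenetic proteins. Acvrl1, also among those that rose, had a mean of 1.4 with ACs and entered the tests only through the stimulated libraries. Among Smads, 2 of 6 tested rose (14.7% of all genes), Smad7 and Smad2, the partner of Smad3, at 0.84 ± 0.15 in log2 (adjusted p = 0.00026). Smad4 was at 0.06 (adjusted p = 0.78).

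Inhibitors and regulators included 6 of 18 tested that rose with both stimuli and 1 that fell, beside 14.7% and 17.2% of all genes. The co-repressor genes Tgif1 and Skil stood at 1.95 ± 0.17 (adjusted p = 2.5e-08) and 1.61 ± 0.19 (adjusted p = 1.3e-06) in log2, and both also rose with each stimulus alone. Smurf1 and Smurf2, ubiquitin ligases that act with Smad7 on the receptor, stood at 0.80 (adjusted p = 0.0093) and 0.82 (adjusted p = 0.00088). Rnf111 rose as well, at 0.77 (adjusted p = 0.0044). The list holds regulators beside inhibitors, so its count is not one of inhibitors alone. The gene that fell was Dab2, an endocytic adaptor, at -0.67 (adjusted p = 0.0008), and Dab2 was the 1 list gene that rose with IL-4 (0.84 ± 0.16 SE, adjusted p = 0.041).

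Genes often used as TGF-β targets split. With both stimuli 6 of 20 tested rose and 8 fell, beside 14.7% and 17.2% of all genes, with a median of -0.27. Those that rose included Smad7, Ski, Skil and Tgif1, whose values are given above. Tgfbi fell in each Type 1 comparison with ACs, as did Junb, a transcription factor gene, at -0.86, -1.37 and -0.83 (adjusted p = 0.0011, 3e-06 and 0.00045). Id1 and Id2 fell with IFN-γ (-1.20 and -0.97, adjusted p = 5e-05 and 3.7e-07), Fn1, the fibronectin gene, fell with E. coli (-1.50 ± 0.19, adjusted p = 2.1e-05), and Klf10 fell with E. coli (-1.52 ± 0.19, adjusted p = 1.5e-05). Other targets were higher with a single stimulus. Pmepa1 stood at 1.59 with IFN-γ (adjusted p = 1.5e-06) and 0.84 with E. coli (adjusted p = 0.0032). Cdkn1a had a mean of 1455 with ACs and 3238 with IFN-γ.

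Other ligands of the superfamily were scarce with ACs alone. The 3 that were tested, Inhba, Bmp6 and Gdf15, had ACs means of 8.52, 4.51 and 4.59 and entered the tests only through the stimulated libraries. All 3 rose with both stimuli, where 14.7% of all genes did. Entry by that route favours a rise, so this count is not read as a result about these ligands. Inhba, the activin A subunit, went from a mean of 8.52 with ACs to 60.8 with E. coli, 37.9 with IFN-γ and 72.3 with both (2.71, 1.96 and 2.83 in log2, adjusted p = 0.00019, 0.0018 and 3.2e-05). Gdf15 went from 4.59 to 65.4 with IFN-γ (3.57 ± 0.35, adjusted p = 2.3e-07). The lists hold some genes under 2 roles, such as Smad7 and Skil, and no test of a whole list was made.

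**Figure D4:**
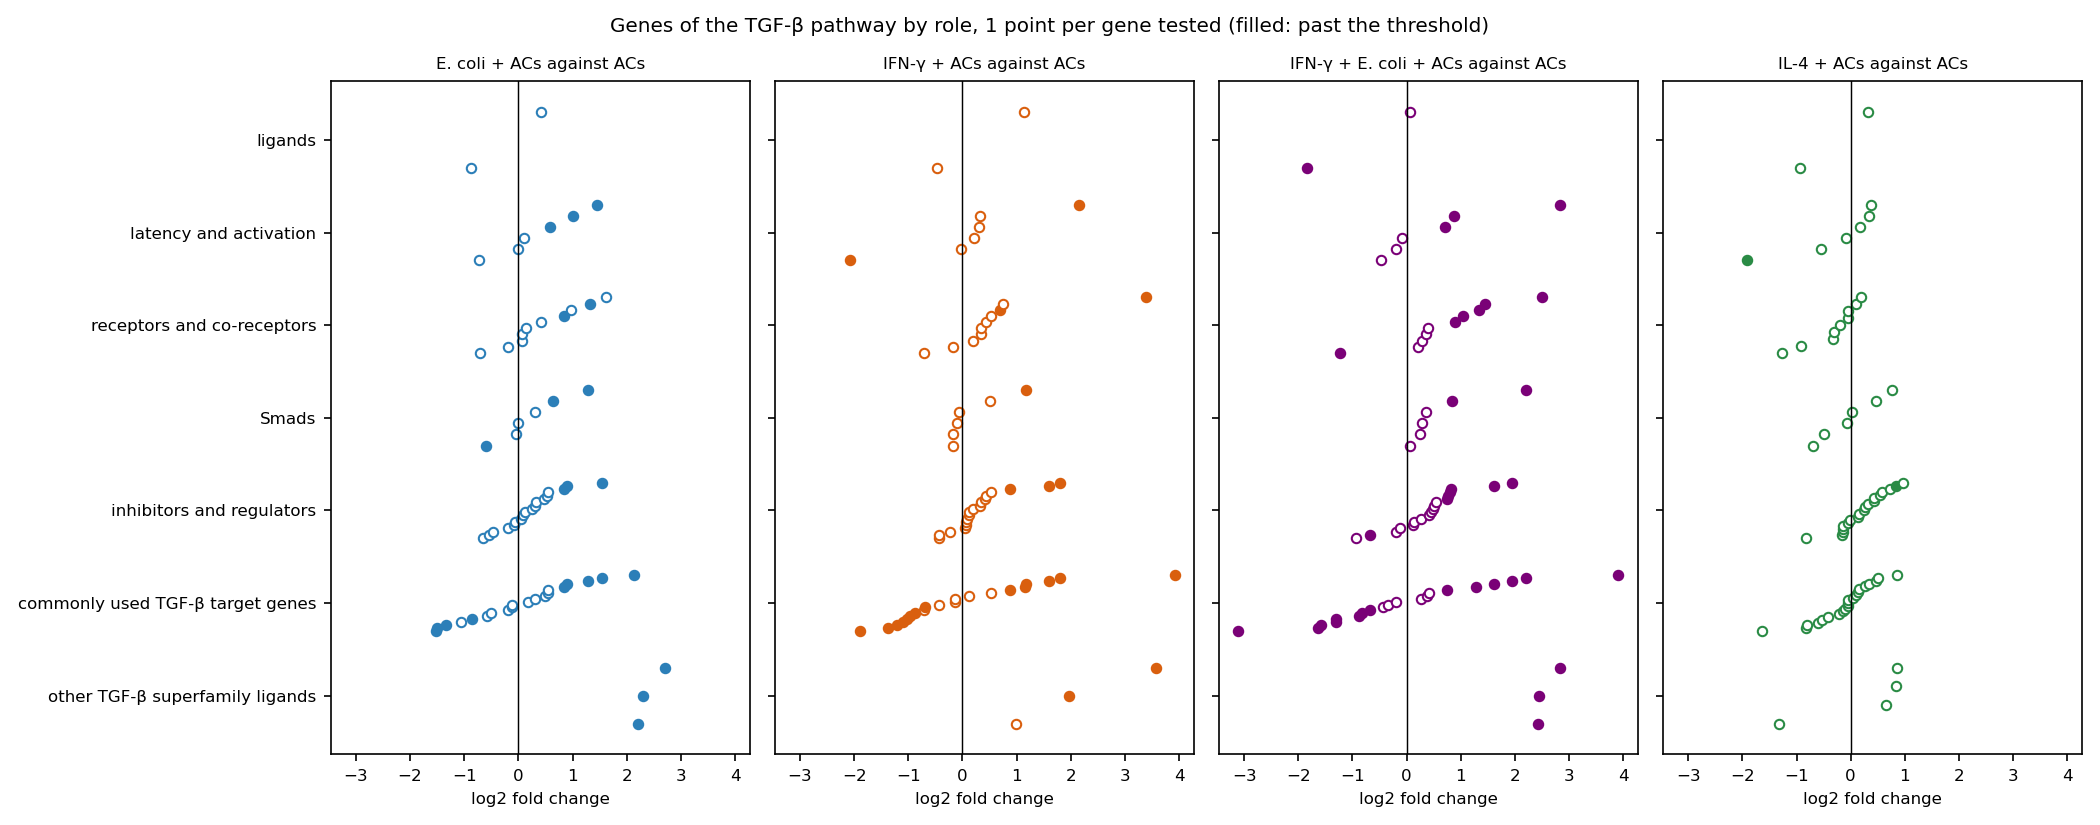
Log2 fold change (horizontal axis) of each pathway gene tested, by role (rows) and comparison with ACs (columns), with filled points past the threshold, and with genes of 2 roles drawn in both rows. With both stimuli 5 of 10 receptors were filled on the right and 1 on the left, the target genes were split 6 to 8, and with IL-4 only Ltbp1 and Dab2 were filled.

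Across the 12 Type 1 libraries, each changed transcript was set beside all 6746 genes with a mean of at least 50, and the 3 genes whose log2 values had the highest Pearson correlation with it are named as a description. All 12 libraries share the same 4 groups, so genes that differ between the groups correlate for that alone. For Tgfbi these were Bank1 (r = 0.980), Gm35853 and Atraid (0.977 each), for Smad7 Gm42462 (0.976), Cd9 (0.974) and Abcc1 (0.969), and for Tgfbr1 Hcfc2 (0.981), Tpd52 (0.973) and Laptm4a (0.969). Tgfbr2 ran closest to Pde3b (0.971), Tnfrsf26 (0.960) and Mcl1 (0.958), and Ski to Fli1, Pxn (0.977 each) and St3gal1 (0.974). Tgfb2 ran closest to Aimp1 (0.953), Pi4k2a (0.952) and Rab7b (0.949), and Smad3, with the weakest likeness, to Efr3a (0.882), Naip6 (0.865) and Nmrk1 (0.860).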

How the data were processed

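RNA sequencing of eosinophils was examined in 18 libraries, 12 of the Type 1 experiment and 6 of the IL-4 experiment, grouped by their labels. The libraries were made by CEL-Seq2, which tags the 3′ ends of transcripts, so levels are not compared between genes, and how molecular identifiers were handled is not given in the sources used here. The values the authors deposited are a signal: counted reads of a gene, scaled in each library by a DESeq2 size factor. The submitters' processing notes name FastQC 0.11.5, Trim Galore, cutadapt 1.10, TopHat2 2.1.0, Bowtie2 2.2.6, HTSeq 0.6.1 and DESeq2 1.26.0 with GRCm38, whereas the study's methods also describe fastp with STAR, and which made this table is not stated. Whole reads were recovered for 100.0% of values in each library (tolerance 0.1 reads). Of the identifiers, 54409 of 54446 were matched to a GENCODE symbol, 53229 with the same version. The files' build and the annotation are both GRCm38. Promoter windows and their sequences are from RefSeq.

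Reads on genes were 779421 to 7782072 per library (median 4461121). In both shallow libraries, replicate 3 of the IL-4 experiment, 1 read stands for normalized counts of 5.1399 (IL-4 + ACs) and 5.3614 (ACs). Replicate pairs differed by a chi-square of 4.19 to 14.69 per degree of freedom, so none agreed within counting error.

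Comparisons used limma 3.58.1 (R 4.3.3), lmFit and then eBayes with a trend, on log2(normalized count + 1), for genes whose mean in the fit was 10 or more: 10166 genes in the 12 Type 1 libraries, 10669 in the 6 IL-4 libraries and 10414 in all 18 for the difference of responses. The p-values were adjusted by the Benjamini-Hochberg method over all of them, and a transcript was past the threshold at an adjusted p under 0.05 and at least 1.5-fold. With 3 libraries a side the smallest two-sided p of an exact permutation test is 0.10, so that test is not used. Alternatives were a pseudocount of 5, no filter, a mean of at least 50, edgeR 4.0.16 (quasi-likelihood) and DESeq2 1.42.0 on recovered reads, the replicate number as a block, upper-quartile scaling, one fit of all 18 libraries, dropping the fold threshold, both shallow libraries left out, and each library left out. Replicate numbers are shared by the groups in the labels. The deviations of same-numbered libraries correlated at 0.17 to 0.24 in all 3 pairs of IFN-γ + ACs and IFN-γ + E. coli + ACs (other pairs -0.16 to 0.02), so these libraries may be paired. The p-values given above for this comparison come from the fit without pairing. The fit with the replicate number as a block, which covers all groups of an experiment, is among the alternatives. In the other pairs of groups compared the correlations were -0.12 to 0.12, not over 0.1 in all 3, and the numbers were not read as pairs. On simulated data with 200 genes changed 4-fold, limma recovered 96% with IFN-γ + E. coli and 83.5% with IL-4. For the interaction it recovered 80.5%, and for the difference of responses 70.5%. The shares for edgeR and DESeq2 were 96% and 94.5% with IFN-γ + E. coli, and 95% and 88% with IL-4. Changes smaller than 4-fold, such as those near the 1.5-fold threshold, were not simulated. These shares therefore do not tell how many smaller changes were missed.

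The 8 genes and all lists were chosen with earlier results of these data known, and the study names several of them. Besides the 8, the pathway genes named are, in each comparison with ACs, up to 5 past the threshold with the largest change and a higher-group mean of 50 or more, and the 3 genes most like each changed transcript. Other pathway genes were named after their values were seen, and a gene that the rule names is not reported here. Python 3.11.15 with pandas 2.3.3 and numpy 2.4.6 read the tables, and matplotlib 3.10.9 drew the plots.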

Additional observations from a re-analysis of the deposited data

Results flagged for a closer look

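The values here are differences between effects, each tested as a term of its own. Between E. coli and IFN-γ, the interaction was past the threshold for Tgfbr2 (1.05 in log2), Smad3 (1.04) and Tgfb2 (-2.09), the last of which rests on 3 to 5 reads per library with both stimuli and was lost with no filter (adjusted p = 0.11) and with all 18 libraries in one fit (adjusted p = 0.058). Between the experiments, the IL-4 response minus the IFN-γ + E. coli response was 2.89 for Tgfbi, -1.15 for Tgfbr1, -1.76 for Tgfbr2, -0.78 for Smad3 and -1.73 for Smad7, where 1 ACs library of the IL-4 experiment held a single Smad7 read.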

How the results depend on the processing

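Of the 32 results of the 8 transcripts against ACs, 13 were past the threshold, and 11 of these kept their call and direction in every alternative run. The exceptions were Smad3 with E. coli, lost with a pseudocount of 5 (-0.58, adjusted p = 0.038, under 1.5-fold), with no filter (adjusted p = 0.066) and with each library left out, and Smad7 with E. coli, at an adjusted p of 0.05 with all 18 libraries in one fit. The values that changed sign were all of results not past the threshold. They were Smad7 with IL-4 (-0.03 in edgeR, -0.18 without both replicate 3 libraries, -0.24 to 0.83 with 1 library left out), Tgfb1 with both stimuli (-0.06 with upper-quartile scaling, -0.15 to 0.41 with 1 left out, below 0 without replicates 1 and 2 of both stimuli), Tgfbr2 with E. coli (-0.08 to 0.16, below 0 without replicate 3 of ACs or of E. coli), Smad3 with IFN-γ (-0.31 to 0.07, above 0 without IFN-γ replicate 1), Tgfbi with IL-4 (-0.35 to 0.01, above 0 without IL-4 replicate 3), the interaction of Tgfb1 (-0.10 to 0.45, below 0 without replicate 1 of both stimuli) and of Tgfbi (-0.01 to 0.26, below 0 without replicate 2), and the difference of responses for Tgfb1 (-0.09 to 0.46, below 0 without replicate 3 of both). Upper-quartile scaling shifted the median of all genes with both stimuli by -0.14. Of all genes, 116 were past the threshold with IL-4, against 208 with no filter, 212 in edgeR, 209 in DESeq2, 221 with all 18 libraries in one fit, 656 without both replicate 3 libraries and 47 to 130 with 1 library left out, the lowest without IL-4 + ACs replicate 1. Without both replicate 3 libraries 1 of the 8 was past it with IL-4. For the interaction the count over all genes was 756, against 495 with all 18 libraries in one fit and 400 to 1026 with 1 library left out, the lowest without E. coli replicate 1, and of the 8 it was 3, against 1 to 3, the lowest without ACs replicate 2. Of the 8, the difference of responses was past the threshold for 5, against 3 with no filter, 3 with upper-quartile scaling and 3 to 6 with 1 library left out, and IFN-γ against E. coli for 2, against 1 with a mean of at least 50, where Tgfb2 was not tested, and 1 to 4 with 1 library left out. With the replicate number as a block, the 6 of the 8 past the threshold for both stimuli against IFN-γ were 6 again (1494 of all genes against 1481), 74 genes were past the threshold with IL-4, and among the 8 the interaction of Tgfb2 (adjusted p = 0.059) and the difference of responses for Smad3 (adjusted p = 0.053) were not. The causes were not tested. In the shallow libraries 3 reads stand for 15.42 (IL-4 + ACs) and 16.08 (ACs) normalized counts, and there Tgfb2 had 4 and 8 reads and Smad7 had 4 and 1.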
